A study of Bombyx mori with 4 samples.

Results

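The loci described here are those of long genomic span in the silkworm (Bombyx mori) prothoracic gland, taken as long transcription units. They are the loci whose listed start and end lie at least 30 kb (30000 bp) apart and whose mean over the 4 libraries was at least 1 FPKM (a fragment count corrected for transcript length and library size). Of the 14622 loci in the deposited table, 192 spanned at least 30 kb and 128 of these reached the mean of 1 FPKM, against 8419 of the 14430 shorter loci. The rule used span and mean level only, not the response to hormone. Glands of final instar larvae (day 4) of a racial hybrid were pre-incubated for 30 min in Grace's medium. One gland of a pair was then held at room temperature with 10 nM recombinant PTTH (prothoracicotropic hormone) and the other in medium alone, for 1 h or 3 h. The groups were PTTH 1 h, control 1 h, PTTH 3 h and control 3 h, all from the same hybrid, and each was 1 library. The labels name no transgene or mutation. Each library pooled RNA of 2 preparations of 12 to 18 larvae. With 1 library a group there is no test here, and limits or standard errors cover counting error only.

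PTTH is the brain peptide that stimulates the prothoracic gland, through a receptor tyrosine kinase and the ERK pathway, to make ecdysone, the precursor of the moulting hormone. RNA polymerase has to cross a whole gene, introns included, before a full-length messenger RNA can leave the nucleus, so messenger of a long unit can appear later than that of a short one after the same signal. In Drosophila the length of some early ecdysone-inducible units is known to delay their messenger in this way. A messenger also falls no faster than it is degraded. The comparisons below ask whether long loci differed later from the control than shorter loci of matched mean FPKM.

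The table gives scaffold positions and no gene names, and 0 of its identifiers matched the 18210 genes of the silkworm reference list, so no marker of the gland could be checked and loci are called by scaffold position. It gives no exons either, so whether a span holds 1 gene or several, and how much of it is intron, was not tested. Span ranged over the 128 long loci from 30115 to 100826 bp with a median of 36198 bp, against a median of 4428 bp in the shorter loci. They lay on 66 scaffolds, with at most 5 on any scaffold. Just inside the limit were nscaf2330:3998551-4028666, at 4.38 FPKM in PTTH 1 h, 4.85 in control 1 h, 4.15 in PTTH 3 h and 5.57 in control 3 h, and nscaf2930:5501071-5531237. The second had 1.25 FPKM in PTTH 1 h, 1.29 in control 1 h, 1.29 in PTTH 3 h and 0.855 in control 3 h. Just outside it was nscaf2889:625123-655113, at 5.07 FPKM in PTTH 1 h, 5.05 in control 1 h, 4.49 in PTTH 3 h and 3.46 in control 3 h. The next was nscaf2851:921346-951306, at 4.91 FPKM in PTTH 1 h, 5.46 in control 1 h, 6.56 in PTTH 3 h and 8.38 in control 3 h. Another locus overlapped 1 member, at nscaf2959:22520-71124, where a second identifier has the same bounds and a mean of 0.244 FPKM against 10.4 FPKM for the member.

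Long loci were moderately expressed. Their median was 7.53 FPKM in PTTH 1 h, 8.16 in control 1 h, 8.50 in PTTH 3 h and 10.8 in control 3 h, while the medians over all 8547 tested loci were 13.6 FPKM in PTTH 1 h, 14.6 in control 1 h, 13.3 in PTTH 3 h and 15.5 in control 3 h. No long locus was listed at 0 in any library, and few of the shorter ones were, 57 of 8419. The most abundant by far was nscaf3040:3258588-3315523, with a span of 56.9 kb, at 813 FPKM in PTTH 1 h against 1015 FPKM in control 1 h. At 3 h it had 912 FPKM in PTTH 3 h against 1387 FPKM in control 3 h. After it came nscaf2823:1825364-1858352 at 125 FPKM in PTTH 1 h against 147 FPKM in control 1 h, while at 3 h the values were 136 FPKM in PTTH 3 h against 194 FPKM in control 3 h. At these loci the control 3 h library stood highest and both PTTH libraries stood below the control of their time.

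A long locus was also better measured than a shorter one of equal FPKM. Read from the authors' confidence limits (the upper limit taken as 2 Poisson standard deviations above the value), the number of implied fragments was 8359000 for PTTH 1 h, 8135000 for control 1 h, 10294000 for PTTH 3 h and 9117000 for control 3 h. Averaged over the 4 libraries, a long locus had a median of 883 implied fragments, against 158 in shorter loci weighted to the same mean FPKM. Implied fragments per FPKM in control 1 h, a relative measure of the length of transcript behind the value, had a median of 97.4 in long loci and 16.3 in shorter ones. The median counting error (SE) of a log2 ratio at 1 h was 0.06 in long loci and 0.12 in shorter ones. A shorter locus therefore passes a fold limit by counting error more readily, and shorter loci are given below weighted to the long loci by mean FPKM and also by implied fragments.

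At 1 h the PTTH and control libraries differed little, both in long loci and in shorter loci of similar depth. Ratios are log2 of (FPKM + 1), which understates the difference of low loci, and a locus was called when this ratio was at least 1 in size, a 2-fold difference of (FPKM + 1). At 1 h 0 of the 128 long loci were called higher and 0 lower, where 0.983% of all tested loci were called higher and 0.959% lower. Shorter loci weighted to the same mean FPKM had 0.939% higher and 1.21% lower, and those weighted by implied fragments 0.872% and 0.371%. Such shares of 128 loci are few loci, so the counts of 0 are not read as a trait of long loci. At 1.5-fold, too, 0 long loci were higher and 0 lower, where the shares over all tested loci were 1.97% and 2.76%. The 1 h ratios of long loci kept within -0.37 to 0.45, and their quartiles were -0.16 and -0.02. In shorter loci weighted by implied fragments the quartiles were -0.16 and 0.03. Whatever the sign, the median size of the ratio was 0.09 in long loci and 0.10 in those shorter loci.

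A single long locus was higher at 1 h with the authors' intervals apart. XLOC_008006, at nscaf2889:964601-1009276 with a span of 44.7 kb, stood at 43.0 FPKM in PTTH 1 h (limits 41.7 to 44.2) and 31.1 FPKM in control 1 h (30.0 to 32.3), a log2 ratio of 0.45 ± 0.03 (counting SE). Intervals lay apart in the lower direction for 29 long loci. The lowest ratios among these were -0.37 ± 0.08 at nscaf3071:739109-772553, with 0.649 FPKM in PTTH 1 h against 1.13 FPKM in control 1 h, and -0.35 ± 0.08 at nscaf2902:734901-766259, with 7.14 FPKM in PTTH 1 h against 9.37 FPKM in control 1 h. Next came nscaf2789:1085206-1117009 at 5.75 FPKM in PTTH 1 h against 7.55 FPKM in control 1 h, the abundant locus on nscaf3040, and nscaf2829:4175912-4211815 at 6.85 FPKM in PTTH 1 h against 8.64 FPKM in control 1 h. Each of these named loci lay on the same side of its control at 3 h. The counts of 1 higher and 29 lower are 0.781% and 22.7%, beside 3.32% higher and 10.3% lower over all tested loci. Shorter loci weighted by implied fragments had 6.29% higher and 17.5% lower. Those weighted by implied fragments per FPKM had 3.49% higher and 25.1% lower.

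At 3 h, 0 long loci were called higher and 5 were called lower, which is 3.91% of them. Over all tested loci 2.84% were called higher and 3.44% lower, and shorter loci weighted to the same mean FPKM had 2.44% higher and 3.89% lower. Weighted by implied fragments instead, they had 3.18% higher and 2.68% lower. Matched by mean FPKM and implied fragments together (5 strata of each), shorter loci had 1.61% lower, and weighted by implied fragments per FPKM 0.966%. The 3.91% of long loci called lower was thus near the share of all tested loci and of those matched by FPKM, and above the share under the other matchings, with 5 loci behind it. With ratios centred on the median of all tested loci, 1 long locus was called higher and 2 lower. Just below the span limit, 11 of the 383 loci spanning 20 to 30 kb were called higher at 3 h, or 2.87%, and 4 lower.

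**Figure D1:**
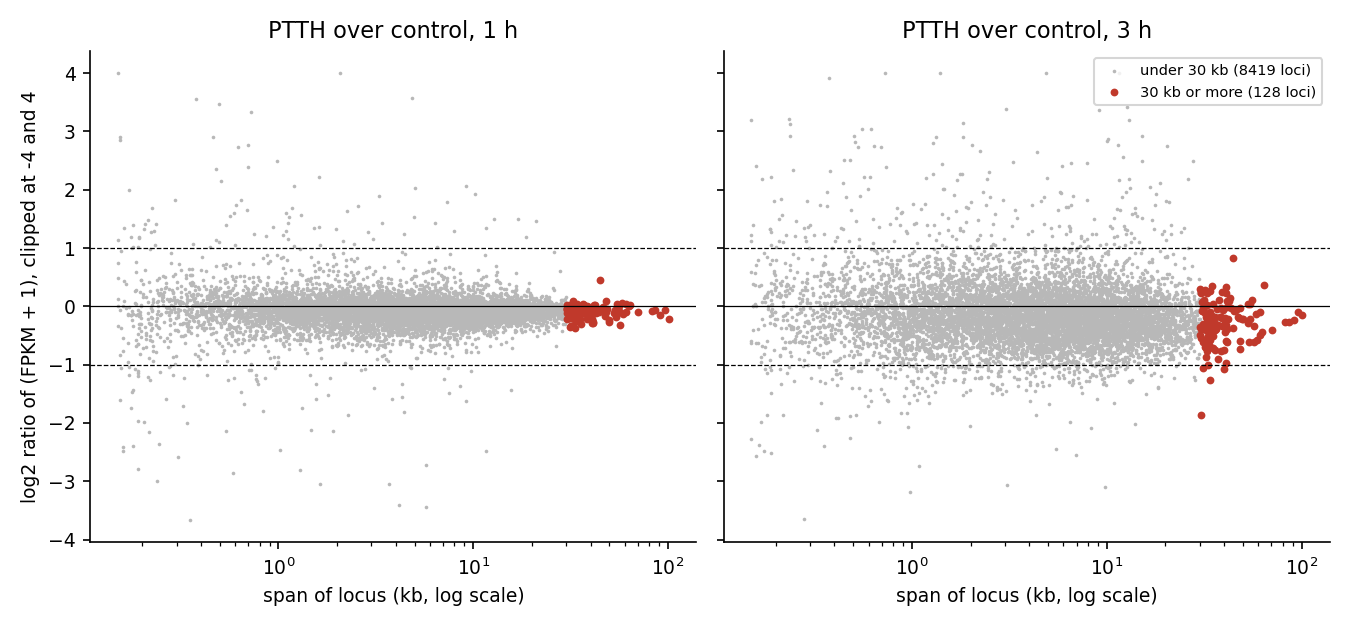
Log2 ratio of (FPKM + 1), PTTH over control, against the span of the locus in kb (log scale) at 1 h and at 3 h, with 1 point per locus, red for the 128 loci of 30 kb or more and grey for the 8419 shorter ones; dashed lines mark the 2-fold limit and values beyond -4 and 4 are drawn at the edge. At 1 h every red point lies between -0.37 and 0.45, and at 3 h 5 red points lie below the lower line and 0 above the upper one.

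The 5 loci called lower at 3 h reached that ratio in different ways. XLOC_011489, at nscaf3027:3646707-3677240, had 17.3 FPKM in PTTH 1 h against 17.7 FPKM in control 1 h, while 3 h gave 17.7 FPKM in PTTH 3 h (16.4 to 18.9) against 67.2 FPKM in control 3 h (64.7 to 69.6). Only control 3 h stood apart there, at 3.80 times the PTTH value, giving log2 ratios of -1.87 ± 0.05 for 3 h and -0.03 ± 0.07 for 1 h. At nscaf2813:80504-120403 the pattern was the same at a lower level, with 3.56 FPKM in PTTH 1 h against 4.15 FPKM in control 1 h, beside 3.33 FPKM in PTTH 3 h against 8.08 FPKM in control 3 h. At nscaf2902:734901-766259 the value was 8.68 FPKM in PTTH 3 h against 19.1 FPKM in control 3 h, with a log2 ratio of -1.05 ± 0.06.

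The remaining pair was low in the PTTH 3 h library itself. XLOC_007508, at nscaf2887:534297-568087, had 51.0 FPKM in PTTH 1 h against 57.6 FPKM in control 1 h, while 3 h gave 14.3 FPKM in PTTH 3 h (13.3 to 15.3) against 35.6 FPKM in control 3 h (33.9 to 37.3). It was the long locus with the most negative ratio over time in both kinds of library, and its log2 PTTH ratio was -1.26 ± 0.06 at 3 h. At nscaf3048:444425-477441 the PTTH 3 h library held 4.15 FPKM (3.72 to 4.58) against 9.31 FPKM in control 3 h, beside 9.06 FPKM in PTTH 1 h and 10.2 FPKM in control 1 h. Just short of the limit was nscaf2822:226640-267481, at 9.76 FPKM in PTTH 3 h against 20.2 FPKM in control 3 h and a ratio of -0.98 ± 0.06. With upper-quartile scaling, or an added 5 FPKM in place of 1, the number called lower was 2 in place of 5.

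**Figure D2:**
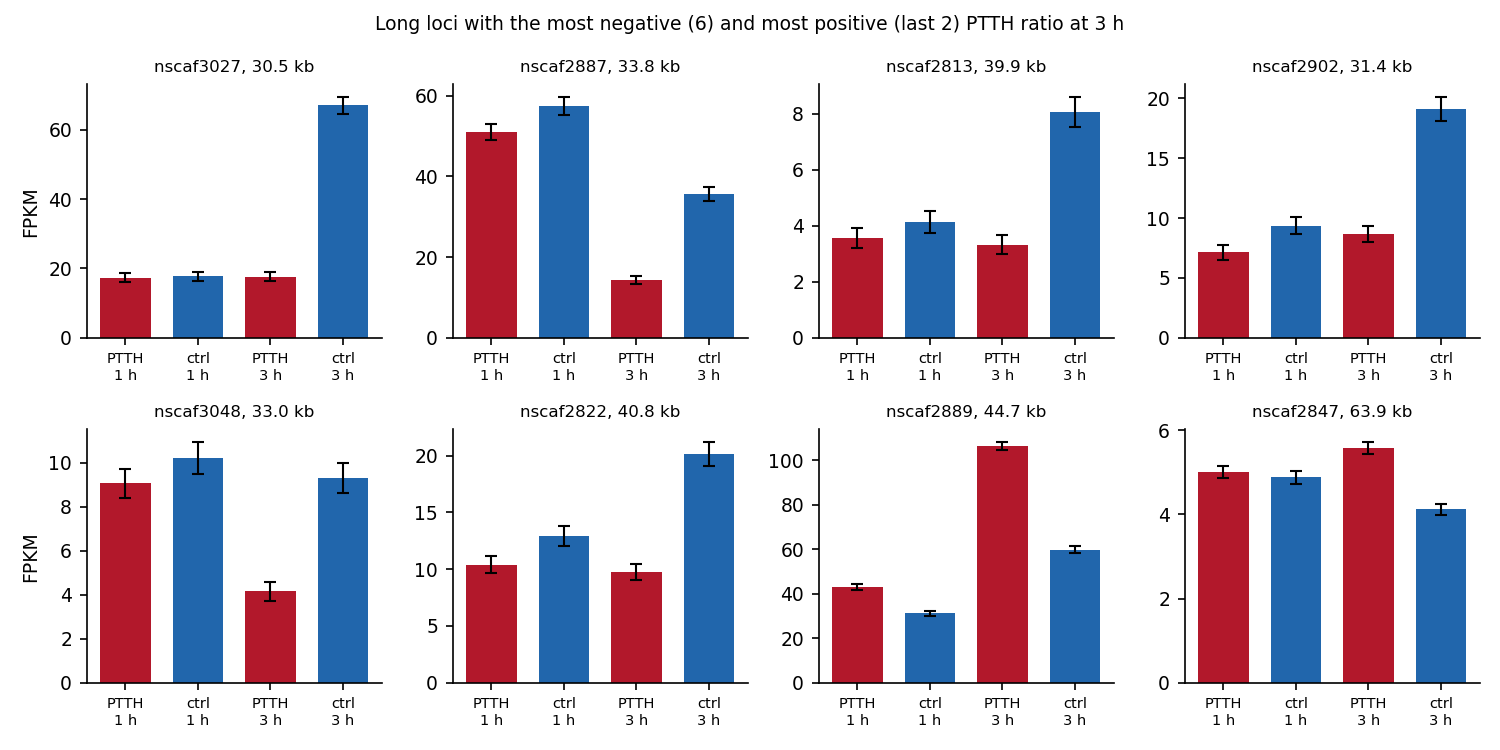
FPKM in each library (bars, with the authors' confidence limits as error bars) of the 6 long loci with the most negative PTTH ratio at 3 h and, last, the 2 with the most positive one; red bars are PTTH and blue bars control, each panel with its own scale from 0. At nscaf3027 the control 3 h bar stands at 67.2 FPKM and the other bars between 17.3 and 17.7 FPKM, while at nscaf2887 the PTTH 3 h bar is the lowest at 14.3 FPKM.

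Below the 2-fold limit the 3 h ratios leaned lower, in long loci and over all tested loci. At 1.5-fold 24 long loci were lower and 1 higher, or 18.8% and 0.781%, where 16.8% of all tested loci were lower and 6.89% higher. Shorter loci weighted to the same mean FPKM had 18.6% lower and 6.41% higher. Weighted by implied fragments they had 14.7% lower and 6.58% higher, and by fragments per FPKM 11.5% and 3.79%. The 24 had a median of 9.68 FPKM in PTTH 3 h (lowest 1.48, highest 912) against 19.6 FPKM in control 3 h (lowest 3.60, highest 1387). At 1 h their medians were 11.3 FPKM with PTTH and 12.8 FPKM without. In 20 of the 24, control 3 h lay above control 1 h with intervals apart, and in 5 PTTH 3 h lay below PTTH 1 h with intervals apart. Over all 128 long loci the same held in 83 and in 16, and choosing loci for a low ratio to control 3 h favours a high control 3 h value, so nothing is read from these counts. The median log2 ratio over the 128 long loci was -0.26, against -0.19 over all tested loci, so relative to all loci it was -0.07. In such whole-gland RNA, fewer cells of a type and less RNA per cell cannot be told apart. As deposited 105 long loci were below their control at 3 h and 23 above it, or 82.0% and 18.0%. Below their control were also 66.9% of all tested loci and 68.7% of shorter loci weighted by mean FPKM. Centred on all tested loci, 79 long loci were below and 49 above.

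The higher side at 3 h was short. XLOC_008006, the locus of 44.7 kb on nscaf2889, led it with 106 FPKM in PTTH 3 h (104 to 108) against 59.8 FPKM in control 3 h (58.3 to 61.4), a log2 ratio of 0.82 ± 0.02. It was the only long locus with intervals apart in the higher direction at both times, and its PTTH ratio was 0.37 ± 0.04 larger at 3 h than at 1 h. It is also the locus that passes 2-fold once ratios are centred. XLOC_006207, at nscaf2847:7399714-7463597 with a span of 63.9 kb, followed with 5.58 FPKM in PTTH 3 h (5.44 to 5.73) against 4.11 FPKM in control 3 h (3.98 to 4.24), beside 5.001 FPKM in PTTH 1 h and 4.88 FPKM in control 1 h. Others were nscaf1690:171924-206639 at 12.0 FPKM in PTTH 3 h against 9.23 FPKM in control 3 h, and nscaf2176:3396451-3437462 at 12.6 FPKM with PTTH against 9.82 FPKM without. The list ended with nscaf2930:728036-760073 at 4.77 FPKM in PTTH 3 h against 3.75 FPKM in control 3 h, and nscaf2990:44878-78780 at 16.7 FPKM with PTTH against 13.7 FPKM without. Apart from the first, these ratios were between 0.27 and 0.36. Intervals lay apart for 12 long loci in the higher and 82 in the lower direction, or 9.38% and 64.1%. The shares were 13.1% and 34.4% over all tested loci, and 19.0% and 46.5% in shorter loci weighted by implied fragments. Weighted by fragments per FPKM, shorter loci had 20.5% and 48.7%.

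Whether long loci differ later was read from loci with intervals apart at 3 h. Of the 82 long loci lower at 3 h, 26 were already lower at 1 h with intervals apart, or 31.7%. Shorter loci had 22.7%, those weighted by mean FPKM 19.1% and those weighted by implied fragments 30.2%. The median log2 ratio of the 82 was -0.38 at 3 h and -0.11 at 1 h. In shorter loci weighted by fragments it was -0.44 at 3 h and -0.10 at 1 h. The share of long loci already lower at 1 h was thus above that of shorter loci of matched FPKM and near that of shorter loci with as many fragments. On the higher side 1 of 12 long loci was already higher at 1 h, or 8.33%. Shorter loci had 17.7%, those weighted by mean FPKM 12.8% and those weighted by fragments 23.4%, but 12 loci are few for such a share.

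**Figure D3:**
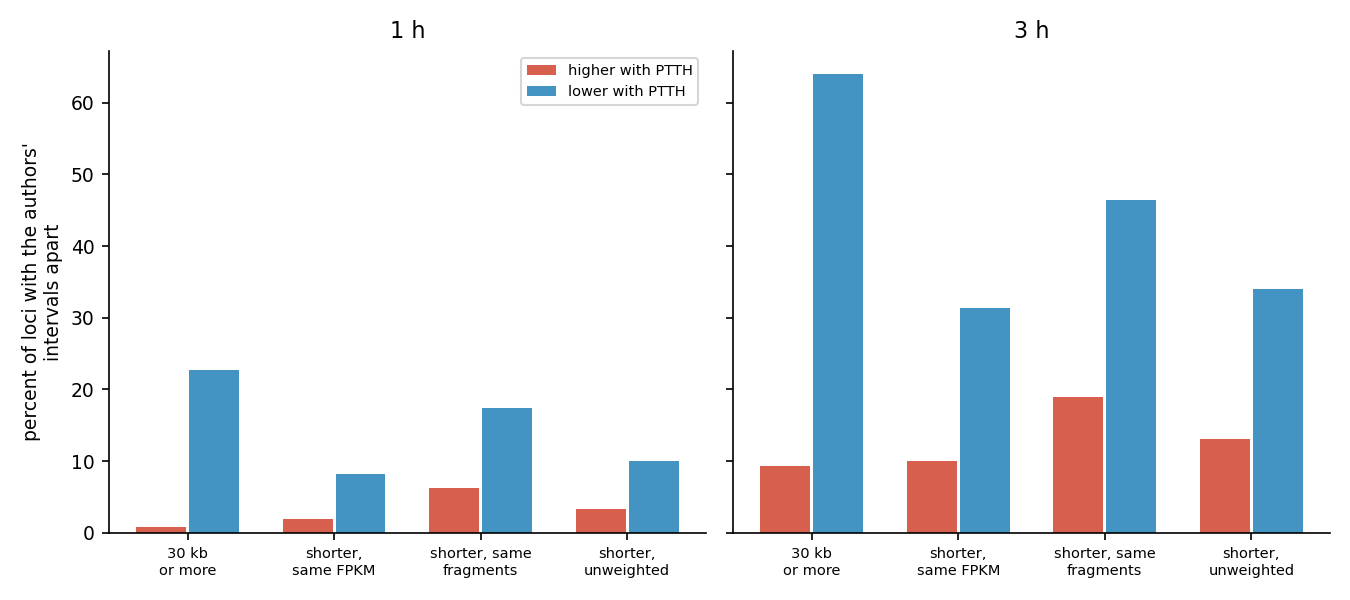
Percent of loci whose authors' confidence intervals for PTTH and control do not overlap, at 1 h and 3 h, split into higher (red) and lower (blue) with PTTH, for loci of 30 kb or more, for shorter loci weighted to the same mean FPKM or the same implied fragments, and for shorter loci unweighted. Of the long loci 22.7% are lower at 1 h and 64.1% at 3 h, and of the shorter loci weighted by fragments 17.5% and 46.5%.

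Among shorter loci called lower at 3 h with intervals apart, 210 of 230 had differed by less than 1.5-fold at 1 h, or 91.3%. All 5 long loci had as well, which had to be so, since no long locus reached 1.5-fold at 1 h. On the higher side there was no long locus to count, and 139 of 205 shorter loci had differed by less than 1.5-fold at 1 h, or 67.8%. By span class that share on the higher side was 54% under 1 kb, 72.7% from 1 to 3 kb, 62.2% from 3 to 10 kb and 80% from 10 to 30 kb. On the lower side it was 83.8%, 91% and 91.7% in the 3 classes under 10 kb and 100% in the class from 10 to 30 kb. The shortest class also had the fewest fragments, with a median of 62.1 against 458 in the class from 10 to 30 kb. The part of depth in this order was not tested.

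The 1 h log2 PTTH ratio was then subtracted from the 3 h one. This difference reached 1 in size with a positive sign in 0 long loci and with a negative sign in 2. Over all tested loci 3.17% were positive and 2.33% negative, and shorter loci weighted by mean FPKM had 3.19% and 2.65%. The 2 negative long loci are 1.56% of the 128, where the negative share of shorter loci was 1.63% weighted by implied fragments, 1.18% matched by FPKM and fragments together and 0.970% weighted by fragments per FPKM. Whether the long share lay below or above that of shorter loci therefore depended on the matching. The 2 were nscaf3027:3646707-3677240 at -1.84 ± 0.09 and nscaf2887:534297-568087 at -1.09 ± 0.07. The most positive was nscaf2176:3396451-3437462 at 0.61 ± 0.09, which was below its control at 1 h, at 6.05 FPKM with PTTH against 7.56 FPKM without, and above it at 3 h. The median difference was -0.18 in long loci and -0.11 over all tested loci.

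The control libraries of the 2 times differed more in the long loci than in shorter ones. In the controls the median log2 ratio of 3 h over 1 h was 0.36 in long loci, against 0.06 in shorter loci, weighted by mean FPKM or not, and 0.11 in shorter loci weighted by fragments. At 1.5-fold 33 long loci were higher in control 3 h and 1 lower, or 25.8% and 0.781%, where 9.85% and 5.35% of all tested loci were. Intervals lay apart for 83 long loci in the higher and 7 in the lower direction, or 64.8% and 5.47%, where the shares over all tested loci were 25% and 12.8%. Intervals part more readily at greater depth, and the share apart in the higher direction was 39.6% in shorter loci weighted by implied fragments and 48.6% in those weighted by fragments per FPKM. At 2-fold 4 long loci were higher and 0 lower, beside 2.36% and 1.24% of all tested loci. A gland pair served only 1 of the times, so time in culture and a difference between larval pools cannot be told apart. Each control group was also 1 library, so a difference between the libraries as prepared cannot be told apart from either. The same holds for the order by span given next.

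The order followed span step by step. From the shortest class upward (under 1 kb, 1 to 3, 3 to 10, 10 to 30, 30 to 50, and 50 kb or more) the median control ratio was -0.05, -0.04, 0.07, 0.19, 0.36 and 0.45. The last class holds 20 loci and its quartiles were -0.01 and 0.61. Transcript length moved with span, so long loci were also set beside shorter loci of similar implied fragments per FPKM, a comparison added after the data were seen. Shorter loci weighted by this measure had a median control ratio of 0.16. The 32 long loci with a median of 84.4 implied fragments per FPKM had a median control ratio of 0.38, against 0.24 in 146 loci of 10 to 30 kb and 0.08 in 39 loci under 10 kb, whose medians of this measure were 82.1 and 84.96. The next 32 long loci, with a median of 112 implied fragments per FPKM, had 0.35, against 0.26 in 72 loci of 10 to 30 kb and 0.01 in 17 loci under 10 kb. Below and above these values the classes did not match in this measure: the 32 long loci with the fewest had a median of 55.4 and the loci under 10 kb beside them 12.4. Within long loci ranked by mean FPKM, in sets of 32 from the lowest upward, the median control ratio was 0.10, 0.34, 0.35 and 0.55. The mean FPKM includes control 3 h, and the added 1 FPKM understates the ratio of low loci. Nothing is therefore read from this order by mean FPKM.

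With PTTH the same comparison gave a smaller figure. The median log2 ratio of PTTH 3 h over PTTH 1 h was 0.14 in long loci, against -0.04 in shorter loci weighted by mean FPKM, 0.01 in those weighted by implied fragments and 0.08 in those weighted by fragments per FPKM. Whatever the sign, the median size of this ratio was 0.23 in long loci and 0.27 in shorter ones. Weighted by mean FPKM it was 0.28 in shorter loci, and weighted by implied fragments or by fragments per FPKM 0.23. At 1.5-fold 15 long loci were higher and 3 lower, where 9.31% and 9.1% of all tested loci were. Intervals lay apart for 57 in the higher and 16 in the lower direction, or 44.5% and 12.5%, where the shares over all tested loci were 19.8% and 20.5%. In the higher direction it was 30.9% in shorter loci weighted by implied fragments and 41.8% in those weighted by fragments per FPKM. At 2-fold 3 were higher and 1 lower, beside 4.2% and 1.73% of all tested loci. By span class the median was -0.08, -0.09, -0.02, 0.04, 0.14 and 0.16. The size of these medians depended on scaling but not their sign: over 4 scalings the long loci stood at 0.26 to 0.36 without PTTH and 0.05 to 0.17 with it. A scaling shifts all loci nearly alike, so the distance of the long loci from all tested loci is kept by construction, at 0.30 without PTTH and 0.17 with it as deposited.

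**Figure D4:**
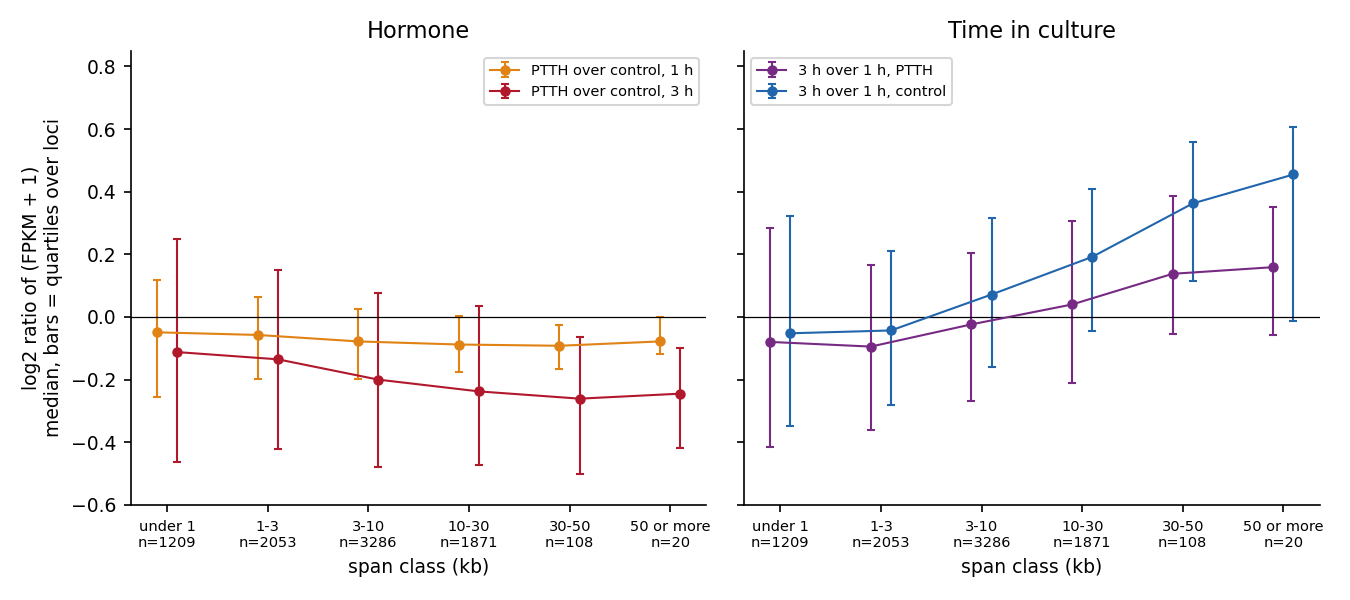
Median log2 ratio of (FPKM + 1) by span class, with bars from the lower to the upper quartile over the loci of a class; the left panel shows PTTH over control at 1 h and 3 h, the right panel 3 h over 1 h in PTTH and in control libraries. In the right panel the control medians run from -0.05 in the shortest class to 0.45 in loci of 50 kb or more, and the PTTH medians from -0.08 to 0.16.

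The long loci at or past 2-fold over time show the forms this took. At nscaf3003:3211527-3248514 both kinds of library were higher at 3 h, with 2.33 FPKM in PTTH 3 h against 0.610 FPKM in PTTH 1 h, and 2.45 FPKM in control 3 h against 0.615 FPKM in control 1 h. At nscaf1681:1044800-1086456 it was likewise, with 21.1 FPKM at 3 h against 9.68 FPKM at 1 h with PTTH, and 19.8 FPKM at 3 h against 9.85 FPKM at 1 h without. At nscaf3071:739109-772553 the values were 2.26 FPKM at 3 h against 0.649 FPKM at 1 h with PTTH, and 4.15 FPKM at 3 h against 1.13 FPKM at 1 h without. In these 3 loci both kinds of library stood higher at 3 h. At nscaf2511:524214-559279 the PTTH libraries had 28.4 FPKM at 3 h against 17.3 FPKM at 1 h, and the controls 47.0 FPKM at 3 h against 18.8 FPKM at 1 h. At nscaf3027:3646707-3677240 the control ratio was 1.86 ± 0.06 and the PTTH ratio 0.03 ± 0.07. The locus of 44.7 kb on nscaf2889 had the most positive PTTH ratio over time, 1.29 ± 0.02, against 0.92 ± 0.03 in the controls. In the lower direction only nscaf2887:534297-568087 passed 2-fold, with a PTTH ratio of -1.76 ± 0.06 and a control ratio of -0.68 ± 0.04.

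The control 3 h library held the highest of the 4 values in 89 of the 128 long loci, or 69.5%, against 41.7% of shorter loci and 42.5% of shorter loci weighted by mean FPKM. PTTH 1 h held it in 3, or 2.34%, against 12.5% of shorter loci. It held the lowest value in 69, or 53.9%, against 26.7% of shorter loci. With upper-quartile scaling control 3 h was highest in 71 long loci and 33.2% of shorter ones, and with a fixed total per library in 79 long loci and 32.1% of shorter ones.

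**Figure D5:**
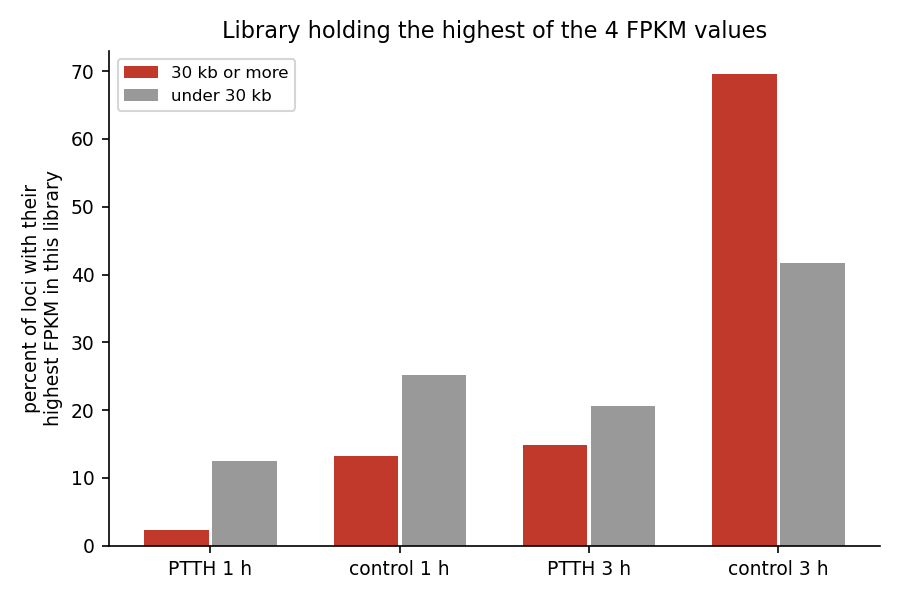
Percent of loci whose highest FPKM of the 4 libraries falls in each library, for the 128 loci of 30 kb or more (red) and the 8419 shorter loci (grey), as deposited. Control 3 h holds the highest value in 69.5% of long and 41.7% of shorter loci, and PTTH 1 h in 2.34% and 12.5%.

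The 4 longest loci lay below their control at both times, as did most of the 128 long loci, 85.2% at 1 h and 82.0% at 3 h. At nscaf3035:207714-308540, of 101 kb, the values were 24.0 FPKM in PTTH 1 h against 28.2 FPKM in control 1 h, while 3 h gave 39.9 FPKM in PTTH 3 h against 44.3 FPKM in control 3 h. At nscaf2993:729880-825841, of 96.0 kb, they were 23.5 FPKM with PTTH against 24.7 FPKM without at 1 h, and 33.0 FPKM with PTTH against 35.4 FPKM without at 3 h. Both stood higher at 3 h with and without PTTH, by log2 ratios between 0.47 and 0.71. At nscaf2859:732806-824065, of 91.3 kb, and nscaf2800:1842232-1928346, of 86.1 kb, the control ratios over time were 0.03 ± 0.03 and -0.02 ± 0.03. Their PTTH ratios over time were -0.05 ± 0.03 and -0.23 ± 0.03, with intervals apart only in the second. At 1 h they had 1.40 FPKM with PTTH against 1.65 FPKM without, and 8.30 FPKM against 8.73 FPKM. Intervals of the locus of 86.1 kb were not apart at 1 h. At 3 h the values were 1.32 FPKM in PTTH 3 h against 1.71 FPKM in control 3 h, and 6.95 FPKM with PTTH against 8.60 FPKM without. The remaining abundant loci, nscaf3072:1139519-1200403 and nscaf2795:754933-789285, had 77.2 FPKM in PTTH 3 h against 109 FPKM in control 3 h, and 74.5 FPKM with PTTH against 88.2 FPKM without.

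Neighbouring loci of the 5 called lower were looked at on both sides. Beside nscaf2887:534297-568087 the next tested locus, 579306-584977, was called lower as well, with 34.1 FPKM in PTTH 3 h against 75.8 FPKM in control 3 h and a log2 ratio of -1.13. No other neighbour of the 5 was called in either direction, although the locus after nscaf2813:80504-120403 stood at -0.91 and the one before it at 0.71. The 2 neighbours of the locus of 44.7 kb on nscaf2889 lay 86147 bp before and 68166 bp after it. Their ratios at 3 h were -0.62 and -0.32, on the other side of the control from that locus. At the neighbour with -0.32 the intervals of PTTH 3 h and control 3 h were not apart.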

How the data were processed

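Per the labels' protocols, libraries were made with a paired-end mRNA-Seq kit. The submitters' processing notes name SAMtools, TopHat and CASAVA 1.8.0, and the deposited table is a gene FPKM table of Cuffdiff. Not given in the sources used here are the genome build, whether starts count from 0 or 1, and how the limits were computed. The FPKM values and limits were made by the authors and used as deposited. The 5 ratio columns were not used.

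Log2 ratios of (FPKM + 1) were computed with pandas 2.3.3 and numpy 2.4.6 under Python 3.11.15, and drawn with matplotlib 3.10.9. Implied fragments were (2 × FPKM / (upper limit - FPKM)) squared, an assumption about the limits, which made low values of the libraries multiples of 0.5 within 0.02 in 82.6 to 88.5% of cases. They give relative depth only. Shorter loci were weighted to the long loci within 10 strata of mean FPKM or of implied fragments. With 1 library a group no p-value was computed. Intervals and standard errors cover counting error only, since each group was 1 library, and reads carried no molecular identifiers.

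Named loci were, for each PTTH comparison, up to 6 with the largest and 6 with the smallest ratio among long loci with intervals apart and at least 20 implied fragments, plus the 4 longest, the 4 most abundant and 2 on each side of the span limit. Loci named over time were all those past 2-fold, and neighbours were chosen after values were seen. The members and classes were chosen with earlier results of these data known. Calls and weights were tested on simulated data. Alternatives were the pseudocount, the FPKM and span limits, the fold limit, scaling, centring, the matching and the handling of loci at 0.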

Additional observations from a re-analysis of the deposited data

Results flagged for a closer look

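Of the long loci, 2 stood on opposite sides of their control at the 2 times, each with the authors' intervals apart at both times. At nscaf2176:3396451-3437462 the log2 ratio was 0.33 at 3 h, with 12.6 FPKM in PTTH 3 h against 9.82 FPKM in control 3 h, and -0.28 at 1 h, with 6.05 FPKM in PTTH 1 h against 7.56 FPKM in control 1 h. At nscaf2136:4742653-4785076 the log2 ratio was 0.10 at 3 h, with 27.6 FPKM in PTTH 3 h against 25.7 FPKM in control 3 h, and -0.11 at 1 h, with 14.7 FPKM in PTTH 1 h against 16.0 FPKM in control 1 h. With 1 library a group the difference between the times was not tested.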

How the results depend on the processing

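No paired analysis was possible because each group was 1 library. Of the recomputed counts and medians of long loci and shares of late loci, 118 stayed within the limits set for them and 58 moved, and of the recomputed shares and medians of matched shorter loci 52 stayed and 18 moved; the cause was not tested beyond what each setting changes by its construction. All counts were within 1.5 times the reported ones when intervals also had to lie apart and when loci listed at 0 were left out. With a limit of 1.5-fold, 1 long locus was higher and 24 lower at 3 h, the difference between times was positive in 1 and negative in 13, controls were higher at 3 h in 33 and lower in 1, and PTTH libraries higher in 15 and lower in 3. At 4-fold each of the counts that had been above 0 was 0. With a span limit of 20 kb (511 loci) 1 locus was higher at 1 h, 11 were higher and 9 lower at 3 h, the difference was positive in 11 and negative in 6, controls were higher in 14 and lower in 1, and PTTH libraries higher in 23 and lower in 2. With 50 kb (20 loci) each of these counts was 0. An added 5 FPKM gave 2 lower at 3 h, 1 negative difference, 2 higher over time in controls and 1 with PTTH, and an added 0.1 FPKM gave 4 negative differences and 5 higher and 3 lower over time with PTTH. Centring gave 1 higher and 2 lower at 3 h and 1 negative difference, upper-quartile scaling 2 lower at 3 h, a fixed total 3 lower over time with PTTH, and a mean of at least 5 FPKM (85 loci) 2 higher over time in controls. The median at 1 h was -0.016 when centred. The median at 3 h was -0.15 with an added 5 FPKM, -0.16 without a filter, -0.32 from 5 FPKM, -0.072 centred and -0.16 with upper-quartile scaling. The control median over time was 0.25 with an added 5 FPKM, 0.19 without a filter, 0.46 from 5 FPKM, 0.30 centred, 0.26 with a fixed total, 0.29 at 20 kb and 0.45 at 50 kb, and the PTTH median 0.055 without a filter and 0.053 with a fixed total. The share of shorter loci called at 3 h that were not yet past the limit at 1 h was 83.9% higher and 98.3% lower when 2-fold was the limit at 1 h, and 81.0% lower with no demand on intervals. The 18 moved values of matched shorter loci came from 3 matchings. By implied fragments, 0.371% of shorter loci were lower at 1 h, 1.63% had a negative difference, and 0.716% without and 1.20% with PTTH were lower over time. By FPKM and fragments together, which left 2 long loci without a counterpart, 0.623% were higher at 1 h, 1.61% lower at 3 h, 1.18% had a negative difference, 1.44% were higher over time without PTTH and 0.780% lower with it, and the medians over time were 0.16 without and 0.08 with PTTH. By fragments per FPKM the same values, in that order, were 0.126, 0.966, 0.970, 1.34 and 0.348%, and 0.16 and 0.08. Matching by implied fragments per FPKM, medians over time under these settings, the medians of matched shorter loci and the library holding the highest value under other scalings were added after seeing the data. Counts under 5 long loci rest on few loci, and a long locus with the fewest fragments, 43.1 on average, allows no finer ratio than its counting error.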

Other observations

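The 64 loci of 30 kb or more that missed the mean of 1 FPKM had a median of 0.120 FPKM, and 2 of them were listed at 0 in all 4 libraries. With 1 FPKM added, a call needs at least 1 FPKM in a library, which at most 2 of them reached in any library, so that 0 called at 1 h or at 3 h was nearly fixed by their level. A mean of 1 FPKM was reached by 66.7% of loci of 30 kb or more and by 58.3% of shorter ones.

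Implied fragments per FPKM, divided by the span in kb, had a median of 2.50 in the 128 long loci and 6.99 in 1376 loci of 1 to 3 kb with at least 100 implied fragments. At or above that second median were 4 long loci, chosen for this value: nscaf2847:7399714-7463597 at 13.8, nscaf2859:732806-824065 at 10.9, nscaf2993:729880-825841 at 7.94 and nscaf2767:1137404-1178929 at 7.27. What fills these spans could not be read from the table, which gives no exons.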
